A study of Homo sapiens with 8 samples.

Results

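The comparison set circPRE8 cells against circPRE2 cells, both carrying a guide RNA against NORAD, in poly(A) RNA sequencing of HCT116, a human colorectal carcinoma line. It used 4 of the 8 libraries, 2 for each line, and all 11585 of 19411 genes in the deposited table with at least 0.5 RPKM (reads normalised for exon length and library size) in at least 2 of the 8 libraries. All 8 libraries came from HCT116 cells with CRISPR interference. The groups, of 2 libraries each, were parental cells given sgControl (parental sgControl), parental cells given sgNORAD (parental sgNORAD), and circPRE2 and circPRE8 cells given sgNORAD. Nothing in the labels says what circPRE2 and circPRE8 express, whether each line is a single clone, or whether the numbered libraries came from separate cultures. The p-values therefore measure only the spread between these libraries. Neither line was analysed here with the control guide, so a difference caused by what a line carries and a difference between the lines from before the guide cannot be told apart. NORAD itself was not analysed here, and the knockdown was not checked.

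CRISPR interference brings a transcriptional repressor, fused to a Cas9 that cannot cut, to the promoter that a guide RNA matches. NORAD is an abundant cytoplasmic long noncoding RNA with many binding sites for PUMILIO proteins, among them PUM2. PUMILIO proteins bind a short motif in the 3′ UTRs of messenger RNAs and recruit the CCR4-NOT deadenylase complex, which shortens poly(A) tails and lowers the messages' stability. NORAD keeps PUMILIO away from such targets, which include regulators of mitosis, DNA replication and DNA repair.

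Between 41.6 and 46.6 megareads on genes were recovered from the RPKM values of the 4 libraries compared, and between 26.95 and 42.3 megareads from the 4 parental ones. The root mean square difference between the libraries of a line was 0.11 on the log2 scale in circPRE2 and 0.125 in circPRE8. Of 12 colon epithelial markers, 10 passed the minimum level, and the list's summed level was 1086.5 and 1108.1 RPKM in circPRE2 and 1297.6 and 1326.1 RPKM in circPRE8. Among them EPCAM, an epithelial adhesion molecule, was at 91.3 and 94.5 RPKM in circPRE2 and 73.2 and 73.8 RPKM in circPRE8, while CDX1, an intestinal transcription factor, was at 0 in every library. Of 10 blood cell markers, 9 were under 0.5 RPKM in all 4 libraries compared. Of 9 fibroblast markers, 5 were under 0.5 RPKM in all 4 libraries, and the list summed to 6.1 and 6.55 RPKM in circPRE2 and to 8.84 and 13.3 RPKM in circPRE8. Of the 9 markers of embryonic kidney and neural lines, 4 were tested and 1 was called, PAX2, a developmental transcription factor that was 1.16-fold higher in circPRE8. Its call was lost in 5 of the 19 alternatives, which include leaving out any one of the 4 libraries compared.

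In circPRE8, 2081 genes were higher than in circPRE2 (18.0% of those tested) and 2975 were lower (25.7%), 5056 in all (43.6%), by limma with Benjamini-Hochberg adjustment over all genes tested and a threshold of 0.05. Most differences were small. Only 45 higher genes (0.388%) and 79 lower genes (0.682%) passed 2-fold, and 60 higher (0.518%) and 106 lower genes (0.915%) lay beyond a log2 difference of 0.5 when that size was itself tested (limma treat). The libraries of the lines did not overlap in 3611 genes with circPRE8 above (31.2%) and 5127 with circPRE8 below (44.3%). Higher genes made up 41.2% of the calls with the deposited scaling, 51.8% with relative log expression factors and 52.1% with upper quartile factors, so the balance of directions depended on the scaling. Without circPRE2 library 1 the counts were 1289 higher and 1884 lower, with 109 genes beyond 0.5. Without circPRE8 library 1 there were 1387 higher genes.

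**Figure D1:**
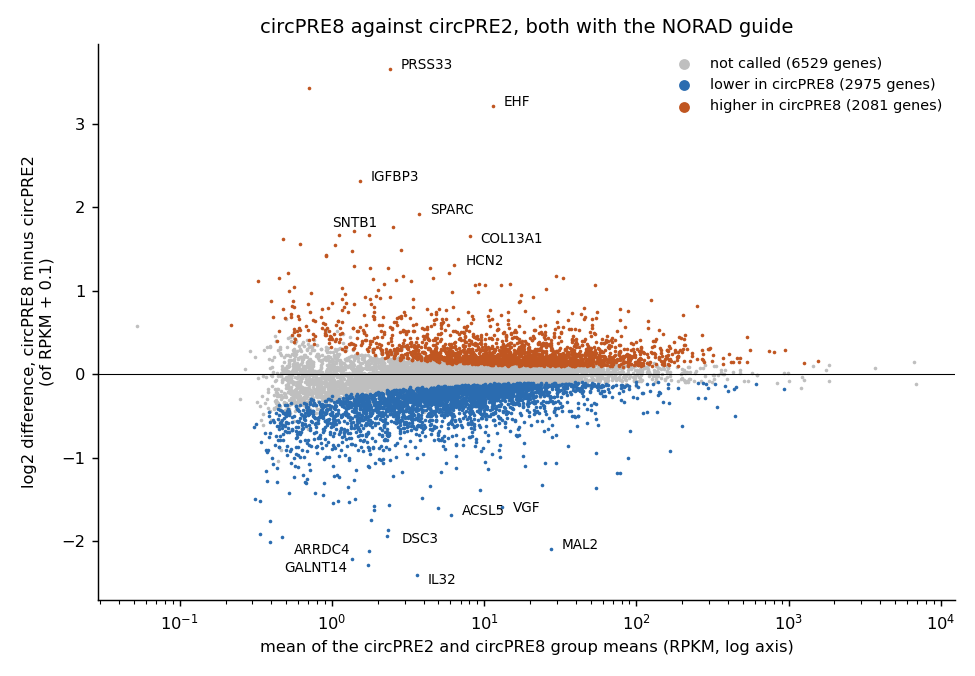
Difference between circPRE8 and circPRE2 for every gene tested. The x axis is the mean of the circPRE2 and circPRE8 group means in RPKM (log axis), the y axis is the log2 difference of RPKM + 0.1, and colours mark the 2081 genes higher and the 2975 lower in circPRE8. PRSS33 and EHF lie at the top and IL32 at the bottom.

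The 14 largest falls among called genes of at least 2 RPKM in the higher line were led by IL32, GALNT14 and ZNF711. IL32, a pro-inflammatory cytokine gene (chr16:3065297-3082192, hg38), was at 6 and 6.26 RPKM in circPRE2 and at 1.23 and 0.949 RPKM in circPRE8. In the parental line it was at 0.022 and 0.0278 RPKM with the control guide and at 7.94 and 7.70 RPKM with the NORAD guide. The circPRE8 libraries thus lay between the parental groups and far below circPRE2. IL32 was 0.19 times as high in circPRE8 as in circPRE2 (log2 difference -2.40, SE 0.11, limma adjusted p = 3.54e-08), on 890 and 1010 against 176 and 150 recovered reads.

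ARRDC4, an alpha-arrestin that responds to glucose, followed the same order of groups. It was at 2.82 and 3.03 RPKM in circPRE2 and 0.662 and 0.545 RPKM in circPRE8, against 0.26 and 0.225 RPKM in parental sgControl and 3.10 and 3.23 RPKM in parental sgNORAD. MMP14, a membrane-anchored matrix metalloprotease, was at 3.79 and 3.64 RPKM in circPRE2 and 0.97 and 0.929 RPKM in circPRE8. It was at 0.59 and 0.385 RPKM in parental sgControl and at 4.16 and 4.44 RPKM in parental sgNORAD. RGS2, which dampens G protein signalling, and ICAM1, an adhesion molecule for leukocyte integrins, were the other members of the 14 largest falls whose circPRE8 mean lay between the parental means. Their levels in circPRE8 were 0.33 and 0.3 times those in circPRE2.

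In the other 9 of the 14, the circPRE8 mean lay below both parental means. GALNT14, which starts mucin-type O-glycosylation, was at 2.81 and 3.01 RPKM in circPRE2 and 0.459 and 0.584 RPKM in circPRE8, while the parental groups had means of 2.36 ± 0.0692 (SD, n = 2) with the control guide and 2.92 ± 0.173 (SD, n = 2) with the NORAD guide. ZNF711, a zinc finger transcription factor on the X chromosome, was at 2.30 and 2.29 RPKM in circPRE2 and 0.425 and 0.41 RPKM in circPRE8. MAL2, a protein of apical transport in epithelia, was at 42.2 and 47.0 RPKM in circPRE2 and 12.7 and 8.49 RPKM in circPRE8. In circPRE2 the means of these genes lay between the parental means, and circPRE8 was the lowest of the 4 groups. GRHL2, a transcription factor that maintains epithelial identity, fell to 0.325 times its circPRE2 level. The folds of ACSL5 (a fatty acyl-CoA synthetase), VGF (a neuropeptide precursor), ZNF516 (a zinc finger protein) and ADGRF1 (an adhesion G protein-coupled receptor) ranged from 0.31 to 0.339.

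The largest rise was in PRSS33, a serine protease gene (chr16:2783953-2787948, hg38). Its level was 0.338 and 0.207 RPKM in circPRE2 and 4.12 and 4.92 RPKM in circPRE8, on 33 and 22 against 389 and 512 recovered reads. All 4 parental libraries were between 0.183 and 0.289 RPKM, so circPRE8 alone stood high. The fold was 12.6 (log2 difference 3.65, SE 0.19, limma adjusted p = 1.15e-07).

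EHF, an epithelial transcription factor of the ETS family (chr11:34621093-34661057, hg38), showed another order. It was at 20.6 and 21.0 RPKM in parental sgControl, 10.2 and 9.01 RPKM in parental sgNORAD, 2.25 and 2.06 RPKM in circPRE2 and 20.4 and 21.1 RPKM in circPRE8. The circPRE8 libraries spanned the range of parental sgControl, and circPRE2 was the lowest of the 4 groups. The fold was 9.24 (log2 difference 3.21, SE 0.06, limma adjusted p = 5.56e-11).

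The next largest rises included 3 genes of secreted or membrane-bound matrix and growth factor proteins. IGFBP3, which binds insulin-like growth factors, was at 0.478 and 0.413 RPKM in circPRE2 and 2.39 and 2.83 RPKM in circPRE8. SPARC, a secreted matrix glycoprotein, was at 1.38 and 1.62 RPKM in circPRE2 and 4.92 and 7.10 RPKM in circPRE8. COL13A1, a transmembrane collagen, was at 3.92 and 3.74 RPKM in circPRE2 and 11.9 and 12.6 RPKM in circPRE8. For these genes both circPRE8 libraries were above every other library. The summed fibroblast marker list was highest in circPRE8 library 2, at 13.3 RPKM, of which SPARC itself made up 7.10 RPKM. In that library COL3A1 was at 1.33 RPKM against 0.681 RPKM in library 1, and DCN at 0.0712 against 0.0178 RPKM. COL1A2 (0.817 against 0.357 RPKM), LUM, PDGFRB, FAP and COL1A1 were also higher in library 2 than in library 1 of circPRE8. THY1 alone of the list went the other way, at 0.00685 against 0.0151 RPKM. COL1A1 was lower in circPRE8 (2.76 and 3.77 RPKM) than in circPRE2 (4.04 and 3.99 RPKM). The part of fibroblast-like cells in the rise of SPARC was not tested.

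SNTB1, a syntrophin of the dystrophin complex, was 3.39-fold higher and TNFSF18, the ligand of the T cell receptor GITR, 2.8-fold higher. VIM, the mesenchymal intermediate filament vimentin, rose from 0.601 and 0.738 RPKM to 2.07 and 1.99 RPKM, a low level in both lines. KLK5, a kallikrein protease, rose 3.18-fold. The folds of HCN2 (a pacemaker channel), PLPP3 (a lipid phosphatase), NRP1 (a coreceptor for semaphorins and VEGF) and CD22 (a sialic acid-binding lectin of B cells) lay between 2.41 and 2.48. All 28 of these genes kept their direction and their call under each of the 19 alternatives that tested them. They were chosen from the same data as large called differences without overlap, so this is no independent support.

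**Figure D2:**
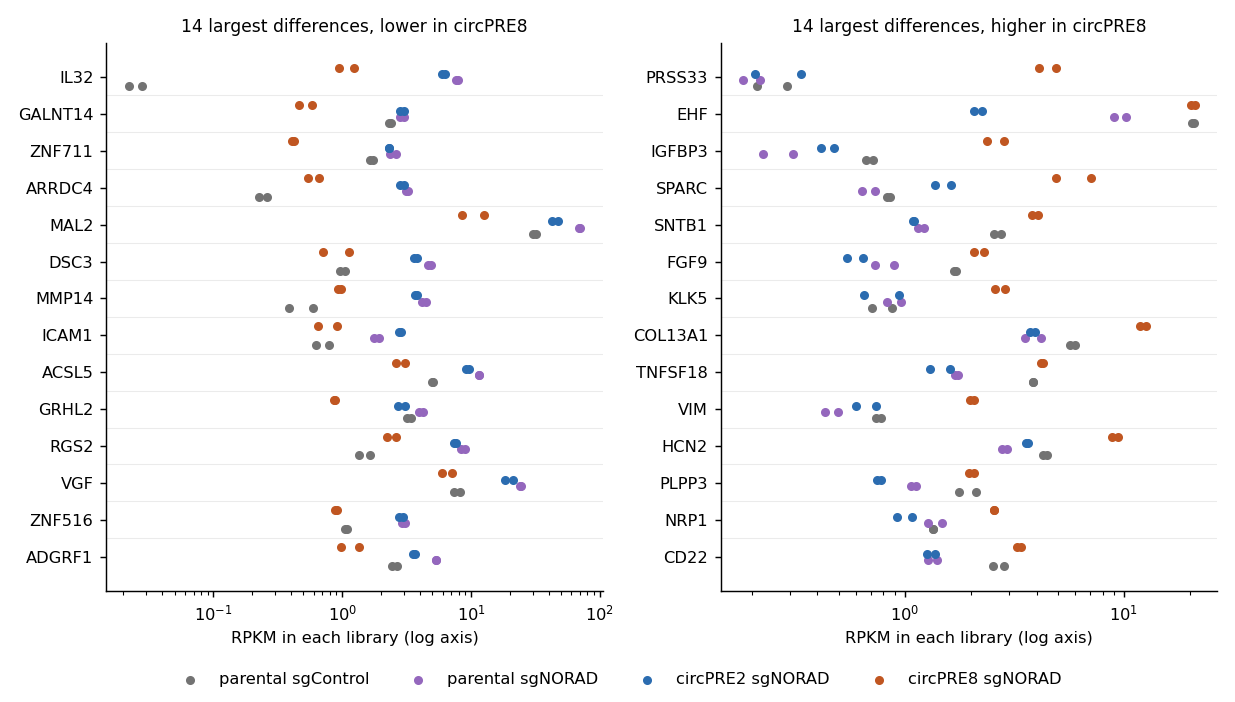
RPKM in each library (x, log axis) for the 14 genes with the largest falls and the 14 with the largest rises in circPRE8, among called genes whose lines do not overlap and that reach 2 RPKM in the higher line. Each point is 1 library, coloured by group. In IL32 and ARRDC4 the circPRE8 points lie between the parental groups, in PRSS33 they lie above all other points, and in EHF they lie on the parental sgControl points.

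Where each line lay relative to the parental groups was described by the distance between group means on the log2 scale. The mean of circPRE2 was nearer to parental sgNORAD than that of circPRE8 in 70.3% of all genes tested, in 84.2% of the higher genes, in 83% of the lower genes and in 163 of the 166 genes beyond 0.5. The mean of circPRE8 was the nearer one to parental sgControl in 51.7% of all genes tested and in 47% of those 166. So circPRE2 was the line nearer to parental sgNORAD in nearly all of the genes that differed most, while the line nearer to parental sgControl was circPRE8 in some of them and circPRE2 in others. These shares are descriptions, with no test.

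The 8-base PUMILIO motif TGTANATA was searched on the transcript strand of the longest annotated 3′ UTR of each gene. It was present in 29.2% of the 11545 tested genes with such a UTR. Among the 28 genes above, FGF9, a fibroblast growth factor, held 5 motifs and DSC3, a desmosomal cadherin, held 2. Their sites are shown first, because they are the ones among these 28 with at least 2 motifs, and those of CDKN1B and PCNA follow as targets named in the literature. Sequences run 5′ to 3′ on the transcript strand, the motif is in capitals, and positions are in hg38 with GENCODE 29 transcripts.
FGF9 site 1, chr13:21703944-21703973, plus strand: ctgtaatggtcTGTAAATAaataaatattg
FGF9 site 2, chr13:21703977-21704006, plus strand: catgcgatttaTGTAAATAgtggaactggg
FGF9 site 3, chr13:21704332-21704361, plus strand: aggtcctgtttTGTAGATAaacaaatggct
FGF9 site 4, chr13:21704429-21704458, plus strand: ctgtaattgtaTGTAAATAcatacaggatt
FGF9 site 5, chr13:21704458-21704487, plus strand: tatgtaatttgTGTAAATAcataattacag
DSC3 site 1, chr18:30993371-30993400, minus strand: ttgtttaaaatTGTAAATAaattaaacttt
DSC3 site 2, chr18:30991266-30991295, minus strand: agaattttttaTGTAAATAtacagaatgtt
CDKN1B site 1, chr12:12721269-12721298, plus strand: tgtactacctgTGTATATAgtttttacctt
CDKN1B site 2, chr12:12722085-12722114, plus strand: aagtgtacctgTGTACATAactctgtaaaa
PCNA site 1, chr20:5115154-5115183, minus strand: ctaagtacataTGTAGATAttgttttctgt
PCNA site 2, chr20:5115138-5115167, minus strand: atattgttttcTGTAAATAacctatttttt

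FGF9 and DSC3 moved in opposite directions. FGF9 was at 0.648 and 0.543 RPKM in circPRE2 and 2.07 and 2.30 RPKM in circPRE8, with 1.67 and 1.71 RPKM in parental sgControl and 0.729 and 0.892 RPKM in parental sgNORAD. Its fold was 3.29 (log2 difference 1.72, SE 0.12, limma adjusted p = 1.17e-06). DSC3 was at 3.80 and 3.63 RPKM in circPRE2 and 1.13 and 0.712 RPKM in circPRE8. It was at 1.04 and 0.952 RPKM in parental sgControl and at 4.89 and 4.61 RPKM in parental sgNORAD. Its fold was 0.262 (log2 difference -1.93, SE 0.15, limma adjusted p = 2.41e-06). That the libraries of the lines do not overlap was part of the rule that chose both genes.

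Among 19 tested PUMILIO targets named in the literature, 9 were higher in circPRE8 (47.4%) and 5 lower (26.3%). The shares over all genes tested were 18.0% and 25.7%. The median log2 difference was 0.09 for the targets beside -0.04 over all genes tested. The number of higher targets fell when some single libraries were left out. PCNA, the sliding clamp of DNA polymerases, rose 1.2-fold and CDKN1B, the cell cycle inhibitor p27, 1.1-fold. PCNA also belongs to the list of DNA replication genes below. DEPTOR, an inhibitor of mTOR with 2 motifs, fell to 0.616 times and ATXN1, the ataxin-1 gene, to 0.635 times the circPRE2 level. COL1A1, a fibrillar collagen, and TSPYL4 were also called lower, at 0.808 and 0.816 times. Their calls were lost in 10 and 1 of the alternatives. The number of lower targets was 3 when either circPRE2 library was left out. E2F3, a cell cycle transcription factor gene with a pair of motifs, was lower at 0.898 times, and SMPDL3A, also with a pair, was not called (0.971 times, limma adjusted p = 0.821).

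PUM2 was at 28.5 and 26.9 RPKM in circPRE2 and 29.5 and 28.4 RPKM in circPRE8 (fold 1.04, limma adjusted p = 0.346). The gene did not pass the test, and its libraries overlapped between the lines. It was called higher in 1 of the alternatives, the removal of the exon length trend described below. Of 26 PUMILIO, NANOS and CCR4-NOT factors, 6 were higher and 6 lower, or 23.1% each, near the 18.0% higher and 25.7% lower over all genes tested. Of these factors, 3 were higher without circPRE2 library 2 or circPRE8 library 1. NANOS1, a PUMILIO partner, was 1.56-fold higher at about 1 RPKM or less, a call lost in 5 of the alternatives, and BTG1, which activates deadenylation, was 1.44-fold higher. The list also holds ALYREF, an mRNA export factor outside these named groups, which was 1.32-fold higher. CNOT1, the scaffold of CCR4-NOT, was 0.752 times as high.

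Over all genes with an annotated 3′ UTR, the median log2 difference was lower with more motifs, going from -0.03 in 8175 genes without one to -0.05 in 2182 genes with 1 and -0.08 in 1188 genes with at least 2. Of the last class 13.1% were higher and 33.8% lower. The classes also differed in 3′ UTR length, with medians of 989, 2213 and 3578 bases. Once a trend with exon length (described below) was removed, the medians of the classes were 0.0003, 0.001 and 0.008. These class medians are descriptions over genes, which are not replicates.

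**Figure D3:**
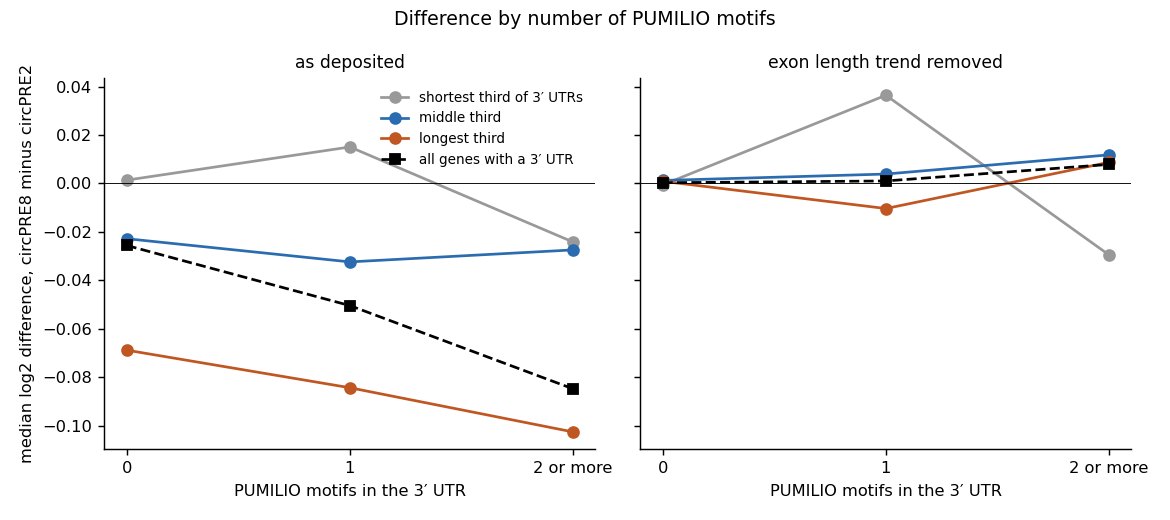
Median log2 difference, circPRE8 minus circPRE2 (y), by the number of PUMILIO motifs in the 3′ UTR (x), for 3 classes of 3′ UTR length and for all genes with a 3′ UTR. On the left, values as deposited go down with the motif number for all genes, from -0.03 to -0.08. On the right, with the exon length trend removed, the line for all genes stays between 0 and 0.008.

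Of 40 tested genes of mitosis and chromosome segregation, 29 were higher in circPRE8 (72.5%) and 1 lower (2.5%). Over all genes tested 18.0% were higher and 25.7% lower. The median log2 difference of the list was 0.22, and between 24 and 30 members were higher when single libraries were left out. KIF18A, a kinesin that dampens chromosome oscillation, was at 11.5 and 12.1 RPKM in circPRE2 and 17.9 and 16.9 RPKM in circPRE8, above the parental libraries. PLK1, a master mitotic kinase, was at 33.3 and 34.7 RPKM in circPRE2 and 46.8 and 44.6 RPKM in circPRE8, with 43.9 and 44.4 RPKM in parental sgControl and 35.0 and 34.4 RPKM in parental sgNORAD. CCNB2, cyclin B2, and CENPA, the centromeric histone H3, were each 1.32-fold higher. In 18 of the 29 higher genes the circPRE8 mean lay between the parental means, and in the other 11 it lay beyond parental sgControl. CENPF, a kinetochore protein singled out after its value was seen, was the lower gene, at 0.819 times.

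Of 13 tested replication-dependent histone genes, 10 were higher (76.9%) and 0 lower by limma, with a median of 0.52. At an unadjusted p under 0.05, 10 were higher and 0 lower, and limma voom on recovered reads gave 9 and 0. Their messages normally lack a poly(A) tail, and the copies are near-identical, so single values are uncertain. The summed level of the list was 62.3 and 60.5 RPKM in circPRE2 and 98.6 and 100.3 RPKM in circPRE8. HIST1H1C, a linker histone gene, was at 13.2 and 11.1 RPKM against 23.2 and 21.3 RPKM. HIST1H3B, HIST1H2BC and HIST1H2BJ, core histone genes at 2.07 RPKM or less in these libraries, were 1.95-fold, 1.79-fold and 1.74-fold higher. The call of HIST1H3B was lost in 1 of the alternatives.

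Of 48 DNA replication genes, 18 were higher (37.5%) and 2 lower (4.17%), beside 18.0% and 25.7% over all genes tested. Only 9 were higher without circPRE2 library 1 or without circPRE8 library 1. TYMS, thymidylate synthase, was 1.45-fold and TK1, thymidine kinase, 1.23-fold higher, while POLE, the catalytic subunit of polymerase epsilon, was 0.814 times as high. Of 22 cohesin and condensin genes, 5 were higher (22.7%, near the 18.0% over all genes) and 1 lower (4.55%). Without either parental sgNORAD library 3 were lower, and with the exon length trend described below removed, 9 were higher and 0 lower. Only 1 was higher without circPRE2 library 1 or circPRE8 library 1, and 2 without circPRE2 library 2. CDCA5 (sororin, which stabilises cohesin), SGO1 (its protector at centromeres) and NCAPH (a condensin subunit) were 1.17-fold, 1.14-fold and 1.12-fold higher, and PDS5A, a cohesin regulator, was 0.867 times as high. The calls of SGO1, NCAPH, PDS5A and POLE were lost in 5, 2, 1 and 1 of the alternatives. Of 43 DNA repair genes, 7 were higher and 13 lower, a lower share (30.2%) near the 25.7% over all genes. PRKDC, the DNA-dependent protein kinase, was at 43.3 and 37.3 RPKM in circPRE2 and 19.6 and 18.8 RPKM in circPRE8. The kinases ATM and ATR were 0.716 and 0.75 times as high, and XRCC4, a cofactor of DNA ligase IV, was 1.59-fold higher. Without circPRE2 library 1 there were 8 lower and 4 higher repair genes, and without circPRE8 library 1 there were 4 higher.

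CDKN1A, the cyclin-dependent kinase inhibitor gene, was at 145 and 147 RPKM in circPRE2 and 150 and 144 RPKM in circPRE8. It was at 84.4 and 91.8 RPKM in parental sgControl and at 150 and 148 RPKM in parental sgNORAD. The CDKN1A libraries of the lines overlapped (fold 1.01, limma adjusted p = 0.902).

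Of 28 tested genes of the integrated stress and unfolded protein response, 22 were higher (78.6%) and 1 lower (3.57%), with a median of 0.25. The shares over all genes tested were 18.0% and 25.7%. CHAC1, a glutathione-degrading enzyme induced by ATF4, was at 2.53 and 2.57 RPKM in circPRE2 and 5.95 and 6.63 RPKM in circPRE8. PSAT1, of serine synthesis, was at 56.1 and 59.6 RPKM in circPRE2 and 102 and 96.9 RPKM in circPRE8, beside 90.1 and 99.2 RPKM in parental sgControl and 71.5 and 69.0 RPKM in parental sgNORAD. The cystine transporter gene SLC7A11 was 1.75-fold and ATF5, a stress-induced transcription factor, 1.52-fold higher. ATF3, a stress-induced transcription factor singled out after its value was seen, was the lower gene, at 0.867 times. Of the 22, circPRE8 lay between the parental means in 8, beyond parental sgControl in 11 and beyond parental sgNORAD in 3. Of 18 heat shock genes, 8 were higher (44.4%) and 1, the HSP110 family gene HSPA4L (0.631 times), was lower (5.56%). DNAJA1 and DNAJB1, cochaperones of HSP70, were 1.56-fold and 1.28-fold higher and the chaperone gene HSP90AA1 1.21-fold. The number of higher heat shock genes was 4 without circPRE2 library 1 or circPRE8 library 1 and 5 without circPRE8 library 2.

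Of 26 EGFR ligands, MAPK feedback and immediate early genes, 6 were higher (23.1%) and 13 lower (50%), with a median of -0.14. Over all genes tested the shares were 18.0% and 25.7%. AREG, the EGFR ligand amphiregulin, was at 78.0 and 77.6 RPKM in circPRE2 and 31.6 and 29 RPKM in circPRE8. EREG, the ligand epiregulin, was at 103.8 and 103.7 RPKM in circPRE2 and 49.3 and 42.1 RPKM in circPRE8. All 4 parental libraries were between 91.1 and 98 RPKM for AREG and between 155 and 162 RPKM for EREG, so circPRE8 was the lowest group for both. The immediate early transcription factor genes FOS and EGR1 were 0.478 and 0.551 times as high.

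MYC, a growth-promoting transcription factor, was at 72.0 and 71.5 RPKM in circPRE2 and 38.6 and 35.9 RPKM in circPRE8. The parental libraries had 58.2 and 59.5 RPKM with the control guide and 92.1 and 93.0 RPKM with the NORAD guide. The fold was 0.519 (log2 difference -0.95, SE 0.04, limma adjusted p = 2.96e-08), and circPRE8 lay below every other library. Of 18 Wnt target, feedback and stem cell genes, which include MYC, 6 were higher (33.3%) and 8 lower (44.4%). Over all genes tested the shares were 18.0% and 25.7%. PROM1, the stem cell marker CD133, was 0.356 times as high. BMP4, a bone morphogenetic protein, was at 35.6 and 33.8 RPKM in circPRE2 and 71.5 and 74.0 RPKM in circPRE8. It was at 68.7 and 69.5 RPKM in parental sgControl and at 42.6 and 40.8 RPKM in parental sgNORAD. SP5, a direct Wnt target, was 2.02-fold higher. Of 17 TGF-beta and YAP response genes, which also include BMP4, 10 were higher (58.8%) and 4 lower (23.5%, near the share over all genes). THBS1, thrombospondin 1, was 1.72-fold higher, while ID2, an inhibitor of differentiation, and SKIL, an inhibitor of SMADs, were 0.479 and 0.668 times as high.

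Of 18 tested genes of the epithelial-mesenchymal transition list, 10 were lower (55.6%) and 5 higher (27.8%), with a median of -0.17. Over all genes tested 25.7% were lower and 18.0% higher. The list mixes genes of epithelial cells, such as CLDN3, with genes of mesenchymal cells, such as VIM and TWIST1. Its shares and median therefore give no direction of the transition. CDH1, E-cadherin, was at 10.4 and 9.79 RPKM in circPRE2 and 5.78 and 6.18 RPKM in circPRE8, and CLDN3, a claudin of tight junctions, was 0.554 times as high. TWIST1, a mesenchymal transcription factor, was 1.74-fold higher and, like VIM, low in absolute level (2.40 and 2.47 RPKM in circPRE8). SPARC, in the same list, reached 4.92 and 7.10 RPKM in circPRE8. Of the 10 colon epithelial markers tested, 6 were lower and 3 higher, the latter being the keratins KRT19 (1.37-fold), KRT8 (1.24-fold) and KRT18 (1.2-fold). ELF3, an epithelial ETS factor, was at 6.50 and 6.27 RPKM in circPRE2 and 2.60 and 2.34 RPKM in circPRE8. Keratins and desmosome genes divided into 8 higher (50%) and 7 lower (43.75%) of 16. The keratin genes KRT81, KRT80 and KRT20 were 2.93-fold, 2.18-fold and 2.07-fold higher, KRT81 and KRT20 from under 1 RPKM. KRT20 lost its call in 1 of the alternatives. Of 11 intestinal differentiation genes, which include EHF, GRHL2, ELF3 and KRT20, 4 were higher and 4 lower (36.4% each). Of 25 matrix, protease and integrin genes, 10 were higher and 10 lower (40% each). Among the lower ones were the laminin genes LAMA4 (0.296 times) and LAMA3 (0.611 times).

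Among metabolic lists, 27 cholesterol and SREBP genes had 4 higher (14.8%) and 10 lower (37.0%) with the deposited scaling. The shares over all genes tested were 18.0% and 25.7%. With relative log expression factors this list had 7 higher and 7 lower. FASN, fatty acid synthase, was at 253 and 232 RPKM in circPRE2 and 160 and 155 RPKM in circPRE8. ACACA, acetyl-CoA carboxylase, SCD, stearoyl-CoA desaturase, and STARD4, a sterol carrier, were 0.675, 0.707 and 0.776 times as high. The number of lower genes was 6 without circPRE2 library 1 or circPRE8 library 2, and 2 were higher without library 1 of either line. Of 27 hypoxia and glycolysis genes, 10 were higher (37.0%) and 5 lower (18.5%). SLC2A1, the glucose transporter GLUT1, was at 65.2 and 65.9 RPKM in circPRE2 and 112 and 111 RPKM in circPRE8, while HK2, hexokinase 2, and PDK1, pyruvate dehydrogenase kinase 1, were 0.554 and 0.617 times as high. The number of higher genes was 6 without circPRE8 library 2.

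Of 41 ribosomal protein genes, 0 were higher and 11 lower by limma, a lower share (26.8%) near the 25.7% over all genes. At an unadjusted p under 0.05, 0 were higher and 15 lower, and limma voom on recovered reads gave 0 and 18. The number lower was 3 without circPRE2 library 2, 4 without circPRE8 library 1, 5 without circPRE8 library 2 and 6 with relative log expression factors. RPL22, RPL3 and RPL10A of the large subunit and RPS6 of the small subunit ranged from 0.844 to 0.898 times. RPS6 lost its call in 2 of the alternatives. Of 35 nuclear-encoded oxidative phosphorylation genes, 1 was higher and 10 lower, again a lower share (28.6%) near that over all genes, with 3 lower without circPRE2 library 2 or circPRE8 library 2, 6 without library 1 of either line and 4 with relative log expression factors. The complex I genes NDUFV1 and NDUFA4 and the complex III gene UQCRC2 were 0.795, 0.868 and 0.862 times as high, and the value of NDUFV2 (0.616) rests on under 0.5 RPKM and lost its call in 5 of the alternatives. The higher gene was NDUFA1 at 1.14-fold, singled out after its value was seen. Of the 4 mitochondrially encoded genes in the table, 0 were called by limma or by limma voom and 0 had an unadjusted p under 0.05, and the libraries of the lines overlapped for each.

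Of 29 tested interferon and double-stranded RNA response genes, 3 were higher (10.3%) and 4 lower (13.8%). Both shares were under those over all genes tested (18.0% and 25.7%), and both counts depended on single libraries. The number of higher genes was 7 without circPRE8 library 1, 2 without circPRE2 library 2 and 1 without circPRE2 library 1 or circPRE8 library 2. The sensor genes TLR3 and IFIH1 were 1.38-fold higher and 0.839 times as high, and the induced genes IFIT1 and IFI35 were 1.27-fold and 1.17-fold higher. The number of lower genes was 1 without library 1 of either line, 2 without circPRE2 library 2 or either parental sgControl library and 7 without circPRE8 library 2. IFIH1 lost its call in 10 of the alternatives, and IFIT1 and IFI35 in 5 each. Of 16 MHC class I genes, 9 were higher (56.25%) and 2 lower (12.5%). The number higher was 4 without circPRE8 library 2 and 5 without circPRE2 library 2. The immunoproteasome genes PSMB10 and PSMB9 were 1.41-fold and 1.22-fold higher, B2M, the class I light chain, 1.15-fold higher, and HLA-F, whose reads may be shared with other class I genes, was 0.777 times as high. The calls of PSMB9, HLA-F and PSMB10 were lost in 4, 3 and 1 of the alternatives. Of 14 NF-kappaB and cytokine genes, 4 were higher and 4 lower, 28.6% each beside 18.0% and 25.7% over all genes tested. The lower ones were led by IL32 and ICAM1, and 2 genes were higher without circPRE2 library 2. LIF, a cytokine of the interleukin 6 family, was 1.46-fold and NFKBIA, the NF-kappaB inhibitor, 1.4-fold higher.

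**Figure D4:**
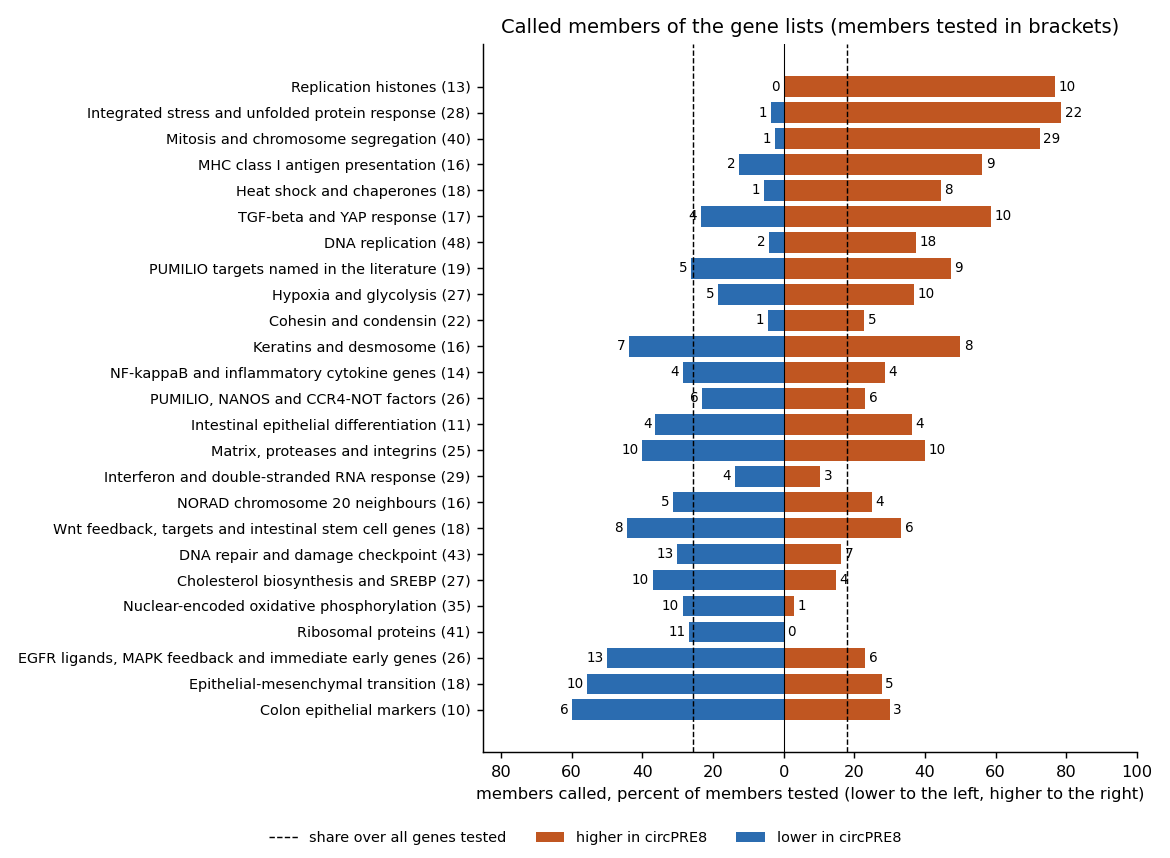
Percent of tested members called higher (right, orange) or lower (left, blue) in circPRE8 for 25 gene lists, with the number called at the bar's end. Dashed lines mark the shares over all genes tested, 18.0% higher and 25.7% lower. Histone, stress response and mitosis lists reach furthest to the right, and the EGFR, epithelial-mesenchymal and colon marker lists furthest to the left. The epithelial-mesenchymal list mixes epithelial and mesenchymal genes.

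The difference between the lines ran with exon length. Genes were divided into 4 classes of equal size by merged exon length. In the shortest class (207 to 3271 bases), 27.7% were higher and 15.4% lower, with a median log2 difference of 0.04. In the longest class (7450 to 44677 bases), 8.08% were higher and 39.3% lower, with a median of -0.12. The median deviation of the longest class minus that of the shortest was -0.11 and -0.12 in the circPRE8 libraries and 0.079 and 0.012 in the circPRE2 libraries. The parental libraries lay between -0.021 and 0.074, so circPRE8 stood apart from the other 3 groups. Its part in the list results was not tested. With the trend removed, 30 mitosis genes were higher and 0 lower, 22 stress response genes were higher and 1 lower, 10 histone genes were higher and 0 lower, and 12 of the EGFR and MAPK list were lower. Other lists moved with the removal. DNA repair genes then stood at 12 higher and 11 lower and ribosomal protein genes at 19 lower. PUMILIO, NANOS and CCR4-NOT factors stood at 10 higher and 4 lower, interferon genes at 5 higher and 1 lower, and NORAD neighbours at 7 higher and 3 lower.

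**Figure D5:**
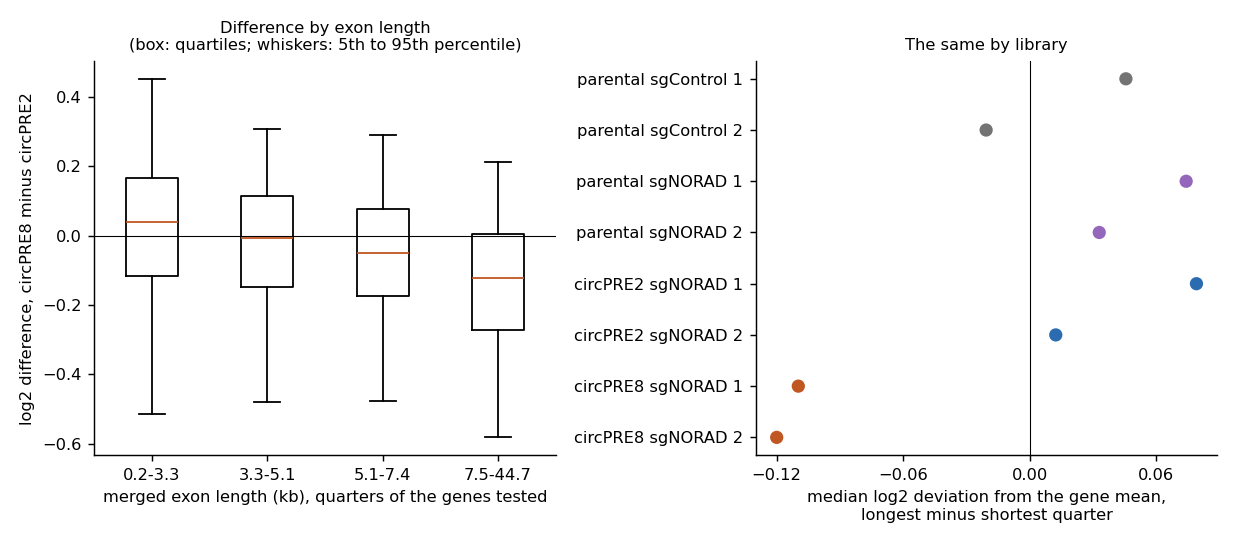
Left, the log2 difference between circPRE8 and circPRE2 (y) by class of merged exon length (x, kb), with boxes for quartiles and whiskers from the 5th to the 95th percentile. Right, the median log2 deviation from the gene mean in the longest minus the shortest class, for each library. The box medians go from 0.04 to -0.12, and both circPRE8 libraries lie left of all the others.

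By position, none of the 24 chromosomes with tested genes, the mitochondrial one included, reached 2 times the share of higher or lower genes found over all genes. Chromosome 21 had the largest share of lower genes, 44.6%, with 45 lower and 10 higher, and 35 lower with 19 higher once the exon length trend was removed. Of 16 tested neighbours of the NORAD locus on chromosome 20, 4 were higher (25%) and 5 lower (31.25%). Both shares were near the 18.0% higher and 25.7% lower over all genes tested. The number lower was 2 under relative log expression factors or without circPRE2 library 2 or either circPRE8 library. Without circPRE2 library 1 there were 2 higher and 3 lower. TGIF2, a repressor of TGF-beta responses, and CPNE1, whose gene overlaps RBM12 so that its reads are uncertain, were 0.683 and 0.754 times as high. MYL9, a myosin light chain, and UQCC1, an assembly factor of complex III, were 1.2-fold and 1.16-fold higher.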

How the data were processed

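The 8 poly(A) RNA libraries were grouped by the genotype and guide labels, with replicate numbers from the sample titles. The sample labels give poly(A) RNA and 2 libraries a group, whereas the series' design text speaks of triplicates and a small RNA kit. The sample labels were followed, and the conflict was not resolved. The authors deposited 1 table of RPKM values. The tools named are STAR (no version), featureCounts 1.6.0 and edgeR 3.24.0, with build hg38, per the submitters' processing notes. The sources used here give no annotation release, no strand setting and no filter, so overlapping and near-identical genes may share reads. Of 19411 identifiers, 19379 matched GENCODE release 29, and 0 columns were left unused.

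limma 3.58.1 (R 4.3.3) was run on log2(RPKM + 0.1), keeping the deposited scaling. The model had 1 coefficient per group, used all 8 libraries and let the prior variance follow intensity (residual degrees of freedom 4, raised to 11.6 by moderation). Tests were two-sided, and p-values were adjusted by Benjamini-Hochberg across the 11585 genes (threshold 0.05). A fold is the antilog of the difference in mean log2(RPKM + 0.1), so it understates changes of low genes. SDs are of RPKM over 2 libraries. On simulated data over 11585 genes the test recovered 100 of 100 genes changed by 1 on the log2 scale and 97 of 100 changed by 0.5, with 18 false calls. The simulation changed only 200 genes and drew independent noise, without the exon length trend. It therefore cannot give the number of false calls in these data, where 43.6% of genes were called.

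Low RPKM values came in steps, from which whole reads (within 0.1 read) were recovered for 17349 of 17350 genes above 0. Of these, 10582 used merged exon lengths from GENCODE release 29, and the others a fitted length. The fitted length was the shortest that gave near-whole reads in every library. Recovery was therefore no check for those genes, and their reads may be too low. Reads serve here for depth, for the numbers beside IL32, PRSS33 and APOBEC3G and for an alternative test, limma voom, which called 2322 genes higher and 3222 lower. Depth figures cover counting error only. A single read on 1 kb of exon was worth between 0.0199 and 0.0352 RPKM. Replicates differed beyond counting noise, with a chi-square per degree of freedom between 3.82 and 11.1.

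Named were the 14 largest differences in each direction among called genes without overlap between the lines and with at least 2 RPKM in the higher line, up to 4 called members of each of 30 lists with the largest differences, and PUM2, CDKN1A and MYC. Some items that the rule takes in are not reported here. Motif sites were read for those of the 28 genes and of the literature targets with at least 2 motifs, and the sites of 4 such genes are printed. Genes on chromosome 8, DEPTOR among them, were left out of the site reading. The members, lists and rules were chosen with earlier results of these data known. Lists are described by counts and medians, without a list test.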

Additional observations from a re-analysis of the deposited data

How the results depend on the processing

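Of 121 called genes named by the rule, 101 kept call and direction under all 19 alternatives that tested them (18 planned, 1 chosen after seeing the data), and 0 reversed. Genes higher numbered 1289 to 2241 and genes lower 1884 to 3244 when each of the 8 libraries was left out, and genes beyond a log2 difference of 0.5 numbered 109 to 201, with the lowest counts without circPRE2 library 1. A line left with 1 library was assumed to vary like the other groups. A pseudocount of 1 RPKM gave 98 genes beyond 0.5 instead of 166, since it shrinks differences of low genes. Apart from library omissions and that pseudocount, every alternative stayed within 1.5 times of the 3 counts. The exon length trend removal, added after seeing the data, gave 2716 higher and 2409 lower, so that 53% of the calls were higher. With the replicate number as a block, 2090 genes were higher, 3043 lower and 169 beyond 0.5. The deviations of same-numbered libraries correlated at -0.08 between circPRE2 and circPRE8 (from -0.17 to 0.21 over the 6 pairs of groups). The labels do not say what same-numbered libraries share, and these correlations cannot settle it. Each line rests on 2 libraries, so the spread used for a gene comes largely from the other genes and groups.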

Other observations

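Other genes beyond a log2 difference of 0.5 (limma treat, Benjamini-Hochberg adjusted) included some that the lists did not hold. They were singled out after their values were seen. APOBEC3G, a cytidine deaminase that restricts retroviruses, was at 0.0322 and 0.037 RPKM in circPRE2 and 1.10 and 1.64 RPKM in circPRE8, a fold of 10.7 on the log2(RPKM + 0.1) scale. The circPRE2 values rest on 8 and 10 recovered reads and those of circPRE8 on 264 and 434. Its paralogues APOBEC3F and APOBEC3C were 2.32-fold and 1.68-fold higher, and near-identical stretches of these genes may share reads. KLK6, a kallikrein protease of the family of KLK5, was 2.26-fold higher.

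Other genes singled out in the same way were lower. S100A14, a calcium-binding protein, was 0.4 times as high and PROM2, a protein of membrane protrusions, 0.411 times. AP1M2, an adaptor of basolateral sorting, EPPK1, the cytolinker epiplakin, SCNN1A, a subunit of the epithelial sodium channel, and RAB25, a recycling GTPase, were 0.466, 0.481, 0.518 and 0.529 times as high. LMNA, the lamin A gene, and S100A4, a calcium-binding protein linked with motility, were 1.86-fold and 1.76-fold higher. IGF2BP3, an RNA-binding protein, fell to 0.383 times and SOX4, a transcription factor, to 0.507 times.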
